A study of Mus musculus with 2 samples.

Results

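Collagens, laminins, integrins and the proteases that cut the matrix were followed in skeletal muscle of old mice after long-term calorie restriction. The genes were taken by name: collagen chains, laminin chains, nidogens, perlecan (Hspg2), agrin (Agrn), fibrillins, fibronectin (Fn1), elastin (Eln), Sparc and Sparcl1, integrin subunits with a numbered name, matrix metalloproteinases, their tissue inhibitors (TIMPs) and the ADAMTS family. The naming pattern matched 68 of the 10543 genes that have a single symbol in the deposited table, 1 collagen was left out beforehand, and the remaining 67 are described here. All 67 passed a filter at a mean of 1 FPKM. The pattern also took Col4a3bp, which encodes a ceramide transfer protein and no collagen, and 4 ADAMTS-like genes, whose products resemble ADAMTS proteins but are not proteases.

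The calorie restriction group (CR) is represented by 1 library from thigh muscles of B6C3F1 mice, a hybrid strain, aged 26 months, that ate about 40% fewer calories than controls for 25 months on an enriched diet. The control group is represented by 1 library from thigh muscles of B6C3F1 control mice of the same age. The number of mice per library was not stated in the labels. With 1 library per group no difference has a replicate check and no p-value is given. The values are FPKM, fragments scaled by transcript length and by library size, on the mouse build mm9, so levels are per length and can be set side by side between genes. A log2 ratio is log2(FPKM + 1) in CR minus that in control, and a fold is the linear form of it. The added 1 understates the difference of low genes. The depth of the libraries is unknown. A value of 0 in this table can be a failed estimate, so a gene listed at 0 in a library is given no fold.

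Each muscle fibre is wrapped in a basement membrane, a sheet in which laminin trimers and a type IV collagen network are tied together by nidogen and perlecan. Between the fibres lies the interstitial matrix, built from fibrils of type I, III and V collagen, type VI collagen filaments, fibronectin and elastic fibres, and made largely by fibroblasts. Integrins are alpha-beta pairs in the cell membrane that hold cells to these proteins, and metalloproteinases and ADAMTS enzymes cut or process them under the control of TIMPs.

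The type IV collagen genes Col4a1 and Col4a2 are shown by their start regions because they lie head to head. The windows, from RefSeq on GRCm38.p6, hold 250 bases before and 50 after the start, and capitals mark the 78 bases that both windows hold, read from opposite strands.
Col4a1 (chr8:11312777-11313076, minus strand): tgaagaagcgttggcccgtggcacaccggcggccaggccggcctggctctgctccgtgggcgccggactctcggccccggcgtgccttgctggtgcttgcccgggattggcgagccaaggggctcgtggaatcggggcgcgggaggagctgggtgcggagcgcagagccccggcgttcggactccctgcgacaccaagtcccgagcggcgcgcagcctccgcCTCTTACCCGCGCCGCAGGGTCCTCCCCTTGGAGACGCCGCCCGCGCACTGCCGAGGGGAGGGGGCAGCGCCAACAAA
Col4a2 (chr8:11312555-11312854, plus strand): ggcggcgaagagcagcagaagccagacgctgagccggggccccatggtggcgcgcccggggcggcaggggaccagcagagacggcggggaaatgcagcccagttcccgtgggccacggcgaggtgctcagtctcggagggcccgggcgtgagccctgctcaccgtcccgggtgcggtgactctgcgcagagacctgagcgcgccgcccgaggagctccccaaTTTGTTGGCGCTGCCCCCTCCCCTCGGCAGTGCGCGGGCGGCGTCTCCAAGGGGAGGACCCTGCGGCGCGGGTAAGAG
The annotated starts lie 21 bases apart. Of the 67 genes, 46 had such windows, 51 in all. Next come 2 interstitial collagens, of which Col3a1 was past 2-fold and Col1a2 was not, then the laminin chains Lamb1 and Lama2, which differed in opposite directions, and the integrin Itga4, the integrin with the lowest ratio. Capitals mark the letters CCAAT and GGGCGG on either strand.
Col1a2 (chr6:4505368-4505667, plus strand): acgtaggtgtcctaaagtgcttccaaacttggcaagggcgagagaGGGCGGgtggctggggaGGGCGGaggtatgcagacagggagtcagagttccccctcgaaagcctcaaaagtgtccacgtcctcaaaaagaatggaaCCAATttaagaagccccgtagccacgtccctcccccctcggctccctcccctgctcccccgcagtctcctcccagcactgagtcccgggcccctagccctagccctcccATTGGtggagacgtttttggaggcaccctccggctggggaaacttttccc
Col3a1 (chr1:45311288-45311587, plus strand): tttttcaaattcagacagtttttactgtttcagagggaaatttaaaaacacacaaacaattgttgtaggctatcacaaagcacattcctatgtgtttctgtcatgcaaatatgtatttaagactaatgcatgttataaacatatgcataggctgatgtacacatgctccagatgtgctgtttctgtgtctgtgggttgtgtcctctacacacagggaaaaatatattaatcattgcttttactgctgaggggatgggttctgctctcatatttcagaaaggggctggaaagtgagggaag
Lamb1 (chr12:31265043-31265342, plus strand): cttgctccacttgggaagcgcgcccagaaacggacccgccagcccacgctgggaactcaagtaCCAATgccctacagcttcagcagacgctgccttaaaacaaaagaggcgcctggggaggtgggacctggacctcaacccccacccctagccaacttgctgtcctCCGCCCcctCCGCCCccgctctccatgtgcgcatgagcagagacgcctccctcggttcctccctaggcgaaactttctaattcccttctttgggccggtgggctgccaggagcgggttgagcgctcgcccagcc
Lama2 (chr10:27616893-27617192, minus strand): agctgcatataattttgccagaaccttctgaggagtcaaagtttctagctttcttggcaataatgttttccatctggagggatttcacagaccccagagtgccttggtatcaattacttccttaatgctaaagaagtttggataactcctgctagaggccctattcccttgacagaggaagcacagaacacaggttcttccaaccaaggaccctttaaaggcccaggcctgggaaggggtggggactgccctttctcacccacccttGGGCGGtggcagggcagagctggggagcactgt
Itga4 (chr2:79255176-79255475, plus strand): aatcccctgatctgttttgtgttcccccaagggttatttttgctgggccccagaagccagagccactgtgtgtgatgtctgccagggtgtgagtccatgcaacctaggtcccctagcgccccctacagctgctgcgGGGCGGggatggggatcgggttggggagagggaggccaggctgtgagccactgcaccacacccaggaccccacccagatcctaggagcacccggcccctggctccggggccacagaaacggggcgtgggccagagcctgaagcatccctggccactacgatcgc
CCAAT was found in 11 of the 51 windows (21.6%), against 36.9% of 9727 windows of genes in the table and 37.4% of all 32851 windows. GGGCGG was found in 38 of the 51 (74.5%), against 63.3% of the windows of genes in the table and 35.7% of all. Both strands were searched, so ATTGG and CCGCCC count as matches, and matches of these motifs can overlap. TATAAA, searched with TTTATA, was found in 5.88% of the 51 windows, against 7.13% of the windows of genes in the table and 13.6% of all. CAGCTG, its own reverse complement, was found in 27.5% of the 51, against 15.5% of the windows of genes in the table and 16.3% of all. The window of Col3a1 held neither CCAAT nor GGGCGG, those of Lama2 and Itga4 held GGGCGG 1 time each, and that of Lamb1 held CCAAT 1 time and GGGCGG 2 times. Such a match describes letters and not a bound site.

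With a threshold of 2-fold, 7 of the 67 genes were higher in CR (10.4%), 12 were lower (17.9%) and 48 lay between. The shares over all 10533 genes that passed the filter were 8.01% higher and 10.7% lower, 18.7% either way. These shares also stand beside the counts of classes and lists below, most of which hold few genes. On the log2 scale, 5042 of the 10533 genes stood above 0 and 5491 below. These stand beside the counts above or below 0 that follow. Of the 10533 genes, 8565 lay within 2-fold, so a few genes that all lie within it do not set a class apart. Being listed at 0 in the CR library put 6 genes among the 12 lower ones, and being listed at 0 in the control library put 1 among the 7 higher ones. Zeros were more frequent in the CR library in general, with 458 of the 10543 single-symbol genes at 0 in CR and 247 in control. Among the 60 genes above 0 in both libraries, 6 were higher and 6 were lower, 10% each, beside 6.14% and 6.85%, 13% either way, of the 9846 genes above 0 in both. Among the 52 genes with a mean of 100 FPKM or more, 5 were higher and 4 were lower, beside 4.95% and 5.29%, 10.2% either way, of the 7886 genes at such levels. The median log2 ratio was 0.08 over all 67 genes and 0.21 over the 60, beside -0.03 over the 10533 genes and -0.02 over all genes above 0 in both. With the columns scaled so that all but the 50 most abundant genes had the same sum, the higher genes numbered 4 and the lower genes 12, since Col3a1, Fn1 and Lamb1 then lay just under 2-fold. Under that scaling the higher share was 5.97% of the 67 genes and 7.15% of the 10533 genes, and the lower share 17.9% and 11.6%, so the higher share of the 67 genes lay below that of all genes, where it lay above it without the rescaling.

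**Figure D1:**
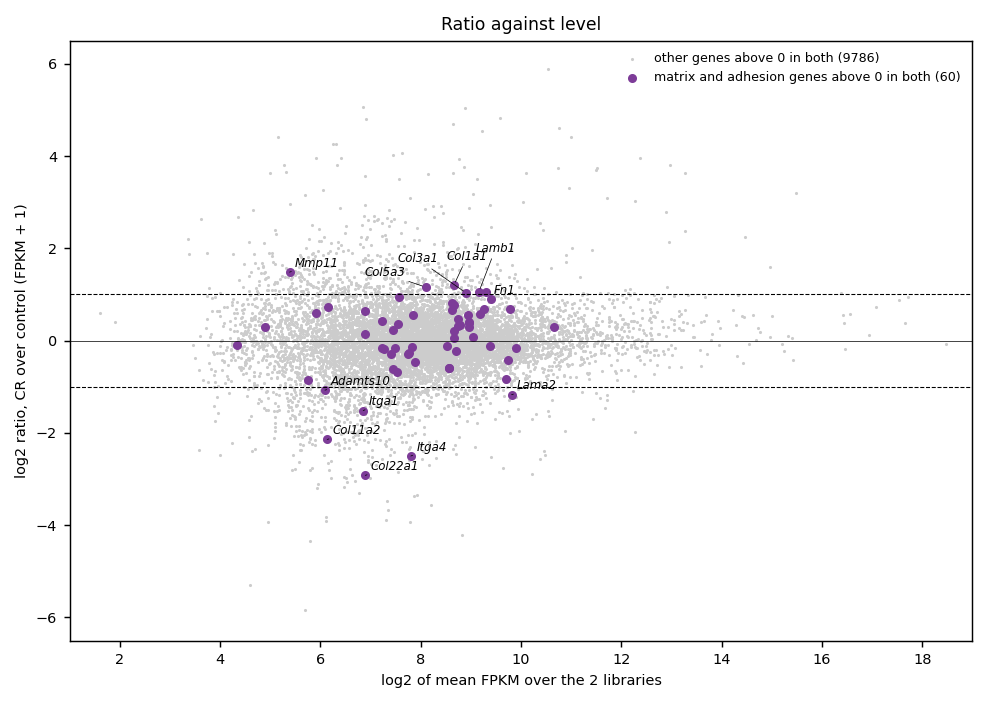
Log2 ratio of CR over control FPKM + 1 (vertical axis) against the log2 of the mean FPKM (horizontal axis) for genes above 0 in both libraries; purple points are the 60 matrix and adhesion genes, grey points the other genes, and dashed lines mark 2-fold. The named points are the 6 genes above and the 6 below these lines, and most purple points lie between them.

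The levels kept much of their order. Above 0 in both libraries the genes ran from 19.4 FPKM (Col8a1) to 1769 FPKM (Col4a1) in the CR library, with a median of 328, and from 20.8 FPKM (Col8a1) to 1451 FPKM (Col4a1) in the control library, with a median of 293. Genes share their library and are no replicates, and across these 60 the correlation of levels in CR with levels in control was 0.82 (Pearson, log2(FPKM + 1)) and 0.84 (Spearman). The 67 genes together took 0.172% of the FPKM of all loci in the CR library and 0.168% in the control library, and of the FPKM of genes with a single symbol 0.306% in CR and 0.319% in control. Loci of 23 of the 67 genes overlap another locus of the table, 8 of them a named one. Since the library kit does not mark strand, the values of these 23 are uncertain, also where no such note is given below. Among them are Itgb5, where the other loci summed to 1042 FPKM in CR and 1803 FPKM in control, and Itga7 (1286 and 1951 FPKM). Nid1 (627 and 332 FPKM) and Timp4 (1069 and 543 FPKM) are others. Across the 60 genes the log2 ratio had a Spearman's rho of -0.26 with transcript length and -0.04 with GC content, beside -0.17 and -0.13 across 8938 genes above 0 in both with a known length.

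**Figure D2:**
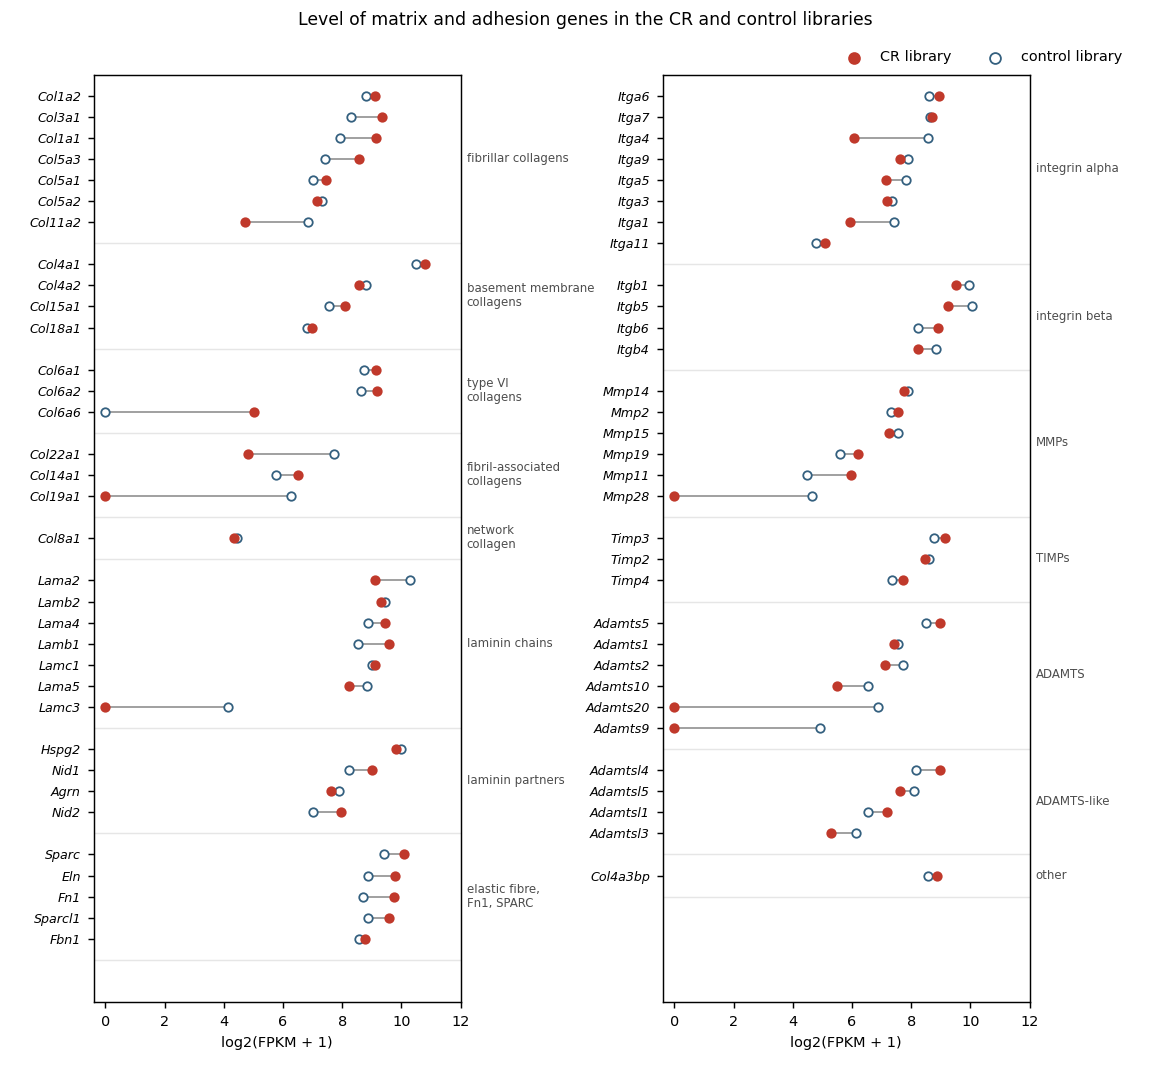
Level of 66 of the 67 genes as log2(FPKM + 1) in the CR library (filled red) and the control library (open blue), grouped by role, with a line joining the pair. Pairs lie close together in most rows, and the long lines to 0 belong to the 6 genes shown that are listed at 0 in a library.

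Of the 7 interstitial collagen chains that form fibrils, 5 stood above 0 on the log2 scale, 3 of them past 2-fold. Of all genes, 8.01% were past 2-fold on the higher side. Col1a1, the alpha 1 chain of type I collagen (chromosome 11, 94797584 to 94813876 in mm9), stood at 564 FPKM in the CR library and 245 FPKM in the control library, a fold of 2.30. Overlapping Col1a1 are 5 unnamed loci, none listed on its strand. They summed to 788 FPKM in CR and 733 FPKM in control, so the value of Col1a1 is uncertain. Col3a1, which forms type III collagen as a trimer of like chains (chromosome 1, 45368383 to 45406551), stood at 645 FPKM in the CR library and 315 FPKM in the control library, a fold of 2.04 that was just under 2 with the columns rescaled as above. Col5a3, a chain of the type V collagen that helps set fibril width (chromosome 9, 20574494 to 20619478), stood at 379 and 169 FPKM in CR and control, a fold of 2.23. These 3 were the fibrillar chains past 2-fold on the higher side. Of the other chains of these trimers, Col1a2 stood at 549 FPKM in the CR library and 445 FPKM in the control library, Col5a1 at 173 and 128 FPKM in CR and control, and Col5a2 at 142 and 158 FPKM in CR and control, all within 2-fold. The chain on the lower side was Col11a2, a minor fibrillar chain best known from cartilage, at 25.3 FPKM in the CR library and 115 FPKM in the control library, 4.41-fold lower in CR. The 7 fibrillar chains had a median log2 ratio of 0.43, and their summed level was 2476 FPKM in the CR library and 1575 FPKM in the control library. As this is whole muscle, a different number of cells of a type and a different amount of RNA per cell cannot be told apart.

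The proportions of partner chains are given from 1 library per group, so no difference in them between CR and control has a replicate check. The type I trimer is made of alpha 1 and alpha 2 chains, and the ratio of Col1a1 to Col1a2 transcript was 1.03 in the CR library and 0.55 in the control library. The unnamed loci that overlap Col1a1 summed to 788 FPKM in CR and 733 FPKM in control. Those that overlap Col1a2 summed to 841 FPKM in CR and 403 FPKM in control. As strand is not marked, the ratio of Col1a1 to Col1a2 and its difference between the libraries are uncertain. The ratio of Col5a1 to Col5a2 was 1.22 in CR and 0.81 in control. For Col6a1 and Col6a2, chains of the type VI filaments that sit beside the basement membrane, the ratio was 0.969 in CR and 1.08 in control. Col6a1 stood at 565 FPKM in the CR library and 429 FPKM in the control library, and Col6a2 at 583 FPKM in the CR library and 398 FPKM in the control library, folds of 1.32 and 1.46. Col6a6, a minor chain of the same type, was listed at 31.7 FPKM in the CR library and 0 in the control library.

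Fibril-associated collagens, which lie on the surface of fibrils and do not form thick fibrils themselves, were few and low, and 2 of 3 stood lower in the CR library. Col22a1, a collagen of the junction between muscle fibre and tendon (chromosome 15, 71628829 to 71864657), had the lowest ratio of all genes above 0 in both libraries described here, with 26.98 FPKM in the CR library and 211 FPKM in the control library, 7.57-fold lower in CR. Col19a1 was listed at 0 in the CR library and at 75.4 FPKM in the control library. Col14a1, found on type I fibrils, stood at 88.97 FPKM in CR and 53.2 FPKM in control, within 2-fold. Tendon markers stood lower in the same library. Of the 8 measured markers, 7 were below 0 on the log2 scale, and 4 of these were at least 2-fold lower: the tendon transcription factor Scx, Comp, Fmod and Chad. Of all genes, 10.7% were at least 2-fold lower. Scx stood at 24.3 FPKM in CR and 62.3 FPKM in control, and Chad was listed at 0 in CR and 85.02 FPKM in control. The tendon list summed to 1178 FPKM in the CR library and 2115 FPKM in the control library, and its part in the values of Col22a1, Col11a2 and Col19a1 was not tested.

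The collagens of the basement membrane lay within 2-fold, 4 of 4. Col4a1, the most abundant gene described here (chromosome 8, 11198423 to 11313088), stood at 1769 FPKM in the CR library and 1451 FPKM in the control library, a fold of 1.22. Col4a2 (chromosome 8, 11312467 to 11449287) stood at 381 FPKM in the CR library and 448 FPKM in the control library, 1.18-fold lower in CR. The type IV trimer of muscle uses both chains, and the ratio of Col4a1 to Col4a2 was 4.64 in CR and 3.24 in control, so the genes whose windows share 78 bases differed in opposite directions, each by less than 2-fold. Their loci overlap by 622 bases on opposite strands, where reads of one gene and the other cannot be told apart. With 1 library per group, the difference in the ratio of Col4a1 to Col4a2 cannot be told from measurement error. Col15a1, a collagen of muscle and capillary basement membranes, stood at 274 FPKM in CR and 187 FPKM in control. Col18a1, the source of endostatin, stood at 125 FPKM in CR and 112 FPKM in control. Col8a1, a short network-forming chain, stood at 19.4 and 20.8 FPKM in CR and control.

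**Figure D3:**
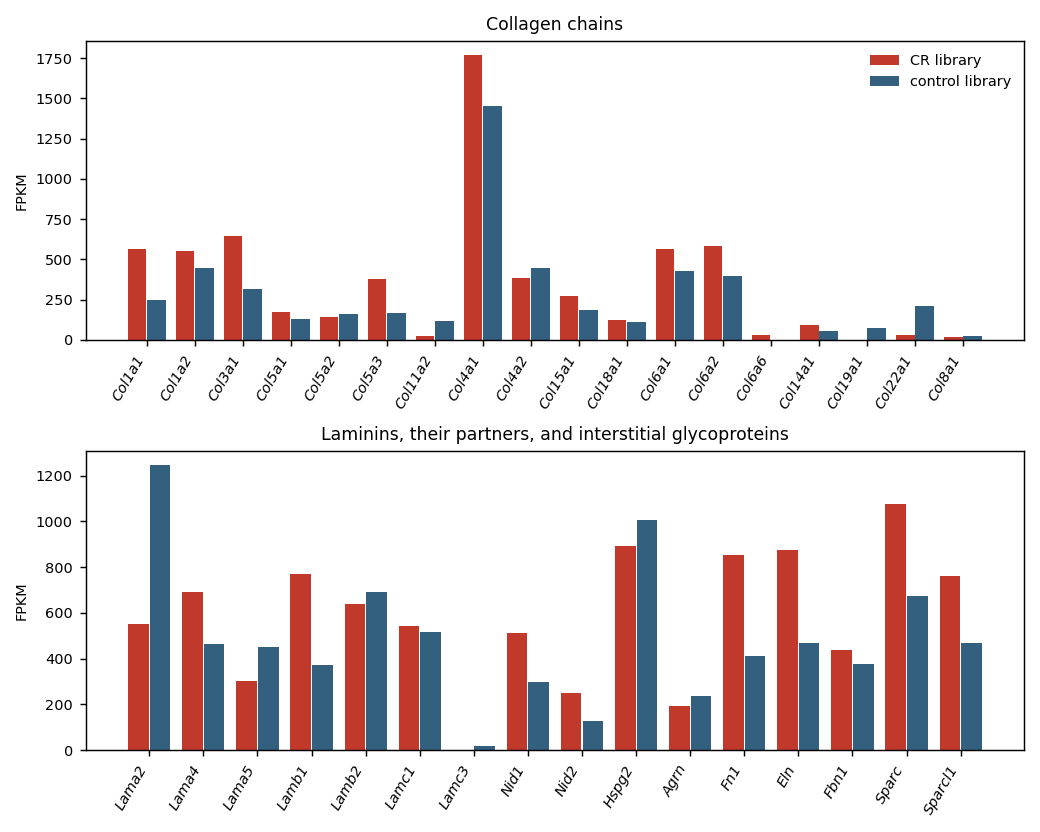
FPKM of the 18 collagen chains (upper panel) and of laminins, their partners and interstitial glycoproteins (lower panel), with the CR library in red left of the control library in blue; each bar is 1 library and there is no error bar. Col1a1, Col3a1, Col5a3, Lamb1 and Fn1 show red bars over 2 times as tall as the blue ones, and Lama2, Col22a1 and Col11a2 show blue bars over 2 times as tall as the red ones.

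Laminins are trimers of an alpha, a beta and a gamma chain, and the set of alpha chains stood in a different order in the libraries. Lama2, the alpha chain of the main muscle fibre laminin, whose loss causes a congenital muscular dystrophy (chromosome 10, 26701092 to 27336748), stood at 552 FPKM in the CR library and 1245 FPKM in the control library, 2.25-fold lower in CR. Lama4, an alpha chain of vessel walls and endoneurium, stood at 691 FPKM in the CR library and 465 FPKM in the control library, a fold of 1.49. Lama5 stood at 301 FPKM in CR and 452 FPKM in control. Lama2 made up 35.7% of the summed alpha chain FPKM in the CR library and 57.6% in the control library, and Lama4 made up 44.8% in CR and 21.5% in control. The most abundant alpha chain was Lama4 in the CR library and Lama2 in the control library. The Lama5 locus overlaps 16 unnamed loci, which summed to 93.3 FPKM in CR and 902 FPKM in control, so its value is uncertain.

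Among beta chains, Lamb1 (chromosome 12, 31950159 to 32015359) was higher in CR, at 772 FPKM in the CR library and 371 FPKM in the control library, a fold of 2.08 that was just under 2 with the same rescaling. Lamb2, the beta chain enriched at the neuromuscular synapse, stood at 639.8 FPKM in CR and 689.9 FPKM in control, so that Lamb1 exceeded Lamb2 in the CR library with a ratio of 1.21 and lay under it in the control library with a ratio of 0.537. The common gamma chain Lamc1 was nearly level, at 544 FPKM in CR and 516 FPKM in control. Lamc3 was listed at 0 in the CR library and at 16.7 FPKM in the control library. The 8 laminin chains had a median log2 ratio of -0.35, and of -0.02 over those above 0 in both libraries.

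The laminin-binding partners of the basement membrane lay within 2-fold, 4 of 4, and the nidogens had the highest ratios of them. Nid1, which bridges laminin and type IV collagen, stood at 513 FPKM in the CR library and 299 FPKM in the control library, a fold of 1.71. Nid2, its paralog, stood at 249 FPKM in CR and 129 FPKM in control, a fold of 1.93, just inside the threshold. The Nid2 locus overlaps 2700060E02Rik on the opposite strand, which was listed at 3590.1 FPKM in CR and 2686 FPKM in control, so the value of Nid2 is uncertain. Perlecan (Hspg2), the heparan sulfate proteoglycan of the sheet, stood at 894 FPKM in CR and 1005 FPKM in control, and Agrn, which organises the synapse and binds dystroglycan, at 194 FPKM in CR and 237 FPKM in control.

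Fibronectin, elastic fibre and SPARC genes stood above 0 on the log2 scale in 5 of 5 cases, with a median log2 ratio of 0.70, and 1 was past 2-fold. That gene was Fn1, the fibronectin on which cells assemble new matrix (chromosome 1, 71632097 to 71699745), at 855 FPKM in the CR library and 413 FPKM in the control library, a fold of 2.07 that was just under 2 with that rescaling. Elastin (Eln) lay just inside 2-fold, at 877 FPKM in CR and 468 FPKM in control, a fold of 1.87. Sparc, a collagen-binding protein and the most abundant of these genes, stood at 1074 FPKM in CR and 672 FPKM in control, and its relative Sparcl1 at 761 FPKM in CR and 469.6 FPKM in control. Fibrillin 1 (Fbn1), the core of microfibrils, had the lowest ratio of the 5, at 437 FPKM in CR and 378 FPKM in control. Fibroblast markers stood above 0 on the log2 scale in 9 of 9 cases, none was listed at 0, and the list summed to 7883 FPKM in the CR library and 4940.2 FPKM in the control library. Smooth muscle and pericyte markers stood above 0 in 6 of 7 cases and summed to 3554 FPKM in CR and 1906 FPKM in control, with none at 0. White adipocyte markers, of which none was at 0, stood above 0 on the log2 scale in 9 of 9 cases and summed to 19309 FPKM in CR and 4191 FPKM in control. Of all 10533 genes, 5042 stood above 0. At least 2-fold higher were 3 of 9 fibroblast, 3 of 7 smooth muscle and pericyte and 8 of 9 white adipocyte markers. In each of these lists 0 were at least 2-fold lower, beside 8.01% higher and 10.7% lower of all genes. The part of these cell types in the collagen, laminin and fibronectin values was not tested.

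Of the 12 integrin subunits, 0 were past 2-fold on the higher side, 2 were past it on the lower side and 10 lay between. The lower share was 16.7%, beside 10.7% of all genes, of which 8.01% were higher. Of the 12 subunits, 8 stood below 0 on the log2 scale, with a median log2 ratio of -0.35. Itga4, which pairs with Itgb1 and binds fibronectin and Vcam1 (chromosome 2, 79095583 to 79173271), stood at 66.3 FPKM in the CR library and 380.0 FPKM in the control library, 5.66-fold lower in CR. Itga1, the collagen-binding partner of Itgb1 (chromosome 13, 115748158 to 115892172), stood at 59.4 FPKM in the CR library and 172 FPKM in the control library, 2.86-fold lower in CR. The gene Pelo lies within the Itga1 locus on the same strand, so the value of Itga1 is uncertain. Itga4 made up 4.30% of the summed FPKM of the 8 alpha subunits in the CR library and 19.1% in the control library.

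The laminin-binding integrins and the beta subunits each lay within 2-fold. Itga7, the alpha subunit that with Itgb1 holds the fibre to laminin, stood at 412 FPKM in CR and 397 FPKM in control, a fold of 1.04. Itga6, another laminin receptor and the most abundant alpha subunit by its mean, had the highest alpha ratio, at 491 FPKM in CR and 386 FPKM in control. Itga3, which also binds laminin, stood at 145 FPKM in CR and 164 FPKM in control. Of the others, Itga5, the fibronectin receptor subunit, stood at 141 FPKM in CR and 226 FPKM in control, Itga9 at 197 FPKM in CR and 239 FPKM in control, and Itga11, a collagen receptor of fibroblasts, at 32.7 FPKM in CR and 26.6 FPKM in control. Among beta subunits, Itgb1, the common partner, stood at 736 FPKM in CR and 982 FPKM in control, and Itgb5, which pairs with Itgav, at 604 FPKM in CR and 1068 FPKM in control, 1.77-fold lower in CR. Itgb4, the partner of Itga6 in hemidesmosomes, stood at 301 FPKM in CR and 454 FPKM in control. Itgb6, which pairs with Itgav and can activate latent TGF-beta, was the beta subunit on the higher side, at 482 FPKM in CR and 303 FPKM in control.

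**Figure D4:**
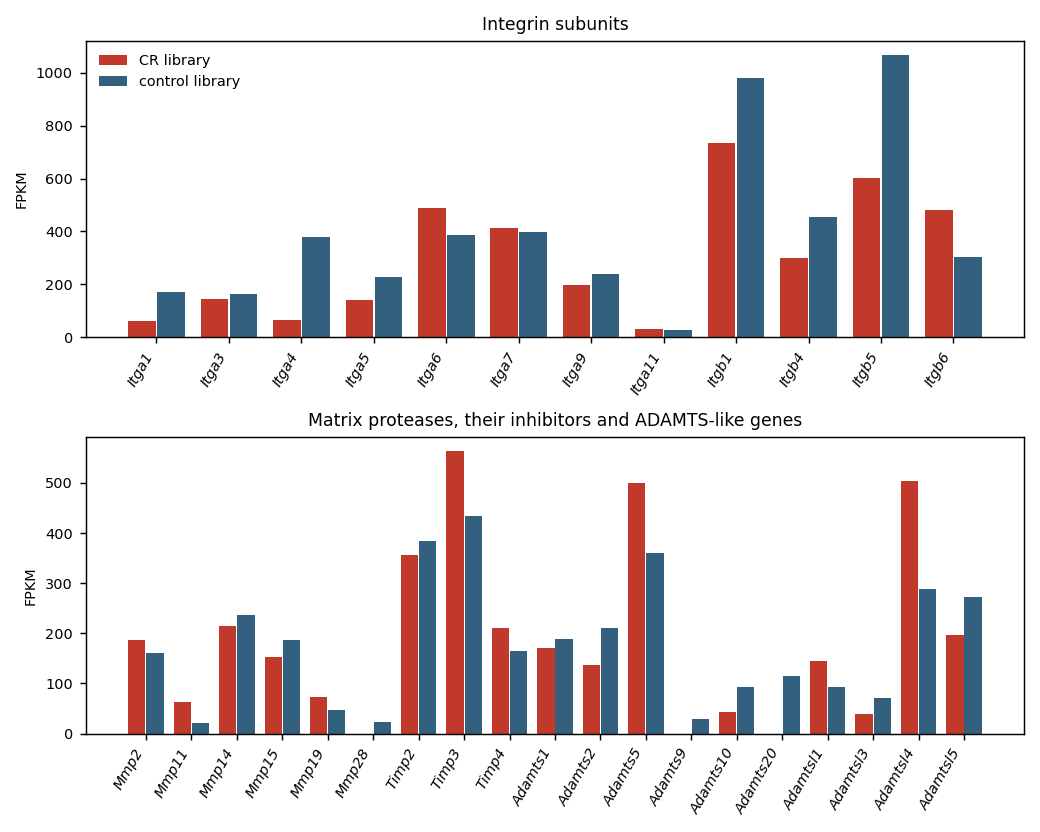
FPKM of the 12 integrin subunits (upper panel) and of matrix metalloproteinases, TIMPs, ADAMTS proteases and ADAMTS-like genes (lower panel), with the CR library in red left of the control library in blue; each bar is 1 library. Itga4 and Itga1 are the integrins with blue bars over 2 times as tall as the red ones, and Adamts20, Adamts9 and Mmp28 have no red bar.

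Matrix metalloproteinases showed no common direction, with 3 of 6 above 0 on the log2 scale and 3 below. Mmp14, a membrane-bound collagenase that activates pro-Mmp2 and the most abundant of them, stood at 215 FPKM in CR and 236 FPKM in control. Mmp2, the gelatinase that cuts type IV collagen, stood at 187 FPKM in CR and 160.1 FPKM in control, and the membrane-bound Mmp15 at 152 FPKM in CR and 187 FPKM in control. Mmp11, stromelysin 3, was the 1 past 2-fold on the higher side, at 61.95 FPKM in CR and 21.5 FPKM in control, a fold of 2.80 at a low level. Mmp19 stood at 72.5 FPKM in CR and 47.5 FPKM in control, and Mmp28 was listed at 0 in CR and 23.95 FPKM in control. Their inhibitors lay within 2-fold, 3 of 3. Timp3, which binds to the matrix and inhibits ADAMTS enzymes too, stood at 563 FPKM in CR and 434 FPKM in control, Timp2 at 356 FPKM in CR and 384 FPKM in control, and Timp4 at 211 FPKM in CR and 164 FPKM in control.

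Of all genes, 10.7% were past 2-fold on the lower side and 8.01% on the higher side. Of the 6 ADAMTS proteases, 3 were past 2-fold on the lower side, 2 of which were listed at 0 in CR, and 0 on the higher side. Adamts5, an aggrecanase that also cuts versican and the most abundant of them, had the highest ratio, at 501 FPKM in CR and 359.7 FPKM in control. Adamts1 stood at 170.1 FPKM in CR and 189 FPKM in control. Adamts2, which removes the amino-terminal propeptide of procollagens, stood at 138 FPKM in CR and 210.3 FPKM in control. Adamts10, a protease tied to fibrillin microfibrils, stood at 43.5 FPKM in CR and 92.6 FPKM in control, 2.10-fold lower in CR. Adamts20 was listed at 0 in the CR library and 115 FPKM in the control library, and Adamts9 at 0 in CR and 29.1 FPKM in control. ADAMTS-like genes lay within 2-fold, 4 of 4. Adamtsl4, which binds fibrillin 1, stood at 505 FPKM in CR and 288 FPKM in control, Adamtsl1 at 144 FPKM in CR and 91.8 FPKM in control, Adamtsl5 at 197 FPKM in CR and 273 FPKM in control, and Adamtsl3 at 38.02 FPKM in CR and 69.97 FPKM in control. Col4a3bp stood at 472 FPKM in CR and 379.5 FPKM in control.

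Among the matrix and adhesion genes alone, 6 pairs of neighbours lie less than 100 kb apart, of which 3 lay on the same side of the 2-fold thresholds. Other genes were not considered here and may lie between them. Col3a1 and Col5a2 lie 24624 bases apart on chromosome 1 with folds of 2.04 and 0.896, and Col1a1 and Itga3 lie 91919 bases apart on chromosome 11 with 2.30 and 0.882. Col6a2 and Col6a1, on the same strand of chromosome 10, had folds of 1.46 and 1.32, and Adamts1 and Adamts5 on chromosome 16 had 0.901 and 1.39.

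Genes that make, finish and bind collagen were taken from lists that leave out the 67 genes. Of 16 measured genes of collagen synthesis and folding, 5 were past 2-fold on the higher side and 1 on the lower side, with a median log2 ratio of -0.10. The shares were 31.25% and 6.25%, beside 8.01% and 10.7% of all genes. P4hb, the beta subunit of prolyl 4-hydroxylase, stood at 862 FPKM in CR and 1073 FPKM in control, and the collagen chaperone Serpinh1, named after its values were seen, at 179 FPKM in CR and 210.1 FPKM in control, both within 2-fold. Fkbp14, a prolyl isomerase of the endoplasmic reticulum, stood at 133 FPKM in CR and 29.6 FPKM in control, and Leprel2, a prolyl 3-hydroxylase, at 18.04 FPKM in CR and 44.3 FPKM in control. The other genes past 2-fold on the higher side were Crtap, which partners a prolyl 3-hydroxylase, at 285 FPKM in CR and 136 FPKM in control, the related Leprel1 at 41.98 FPKM in CR and 19.2 FPKM in control and Leprel4 at 56.8 FPKM in CR and 26.3 FPKM in control, and the transcription factor Creb3l1 at 44.2 FPKM in CR and 15.02 FPKM in control. Of 8 genes of procollagen processing and crosslinking, 0 were at least 2-fold higher and 1 was at least 2-fold lower (median 0.01). The lower one was the crosslinking enzyme Lox, at 129 FPKM in CR and 323 FPKM in control, while Loxl2 stood at 61.8 FPKM in CR and 42.5 FPKM in control and the procollagen C-proteinase Bmp1 at 423 FPKM in CR and 305 FPKM in control.

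Small proteoglycans and matricellular genes were split, with 6 of 30 at least 2-fold higher and 3 at least 2-fold lower (median 0.21). The shares were 20% and 10%, beside 8.01% and 10.7% of all genes. Decorin (Dcn), which coats collagen fibrils, stood at 3098 FPKM in CR and 1902 FPKM in control, Smoc1, a basement membrane protein of the SPARC family, at 148 FPKM in CR and 19.4 FPKM in control, and thrombospondin 2 (Thbs2) at 74.1 FPKM in CR and 367 FPKM in control. Fibromodulin (Fmod), also a tendon marker, and Cyr61 were the other lower genes, at 373 and 279.7 FPKM in CR and 844 and 642 FPKM in control. Periostin (Postn), a matricellular protein of fibroblasts, and lumican (Lum), also a fibroblast marker, were higher, at 187 and 570.2 FPKM in CR and 38.6 and 128 FPKM in control. The other higher genes were Dpt (330 FPKM in CR and 162 FPKM in control), Mfap5 (279 and 131 FPKM) and Mfap2. Mfap2 was listed at 28.7 FPKM in CR and 0 in control. Dpt, Mfap5 and Dcn are fibroblast markers too, so the lists are not separate observations. TGF-beta ligands, latency proteins, receptors and Smad genes had 0 of 14 at least 2-fold higher and 1 at least 2-fold lower (median -0.35). That was Smad7, an inhibitor that TGF-beta itself induces, at 57.4 FPKM in CR and 185 FPKM in control, while Ltbp4 stood at 1056 FPKM in CR and 1466 FPKM in control and Lrrc32 at 97.2 FPKM in CR and 84.97 FPKM in control. On the cell side, 0 of 22 genes of integrin adhesion and other laminin receptors were at least 2-fold higher and 3 were at least 2-fold lower (median -0.15). Talin 1 (Tln1), which couples integrins to actin, stood at 1379 FPKM in CR and 1690.3 FPKM in control, vinculin (Vcl) at 665 FPKM in CR and 449 FPKM in control, and Itgbl1, an integrin beta-like secreted protein, at 43.5 FPKM in CR and 174 FPKM in control. The other lower genes were the leukocyte integrin Itgad, at 54.2 FPKM in CR and 136 FPKM in control, and Fermt3, the kindlin of blood cells, listed at 0 in CR and 13.1 FPKM in control. Other matrix-degrading proteases and inhibitors had 1 of 17 at least 2-fold higher and 0 at least 2-fold lower (median 0.18). It was Adam19, at 106 FPKM in CR and 23.04 FPKM in control, beside the abundant Bsg, an inducer of metalloproteinases, at 4530.4 FPKM in CR and 6076 FPKM in control and the protease Htra1 at 211 FPKM in CR and 359 FPKM in control.

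**Figure D5:**
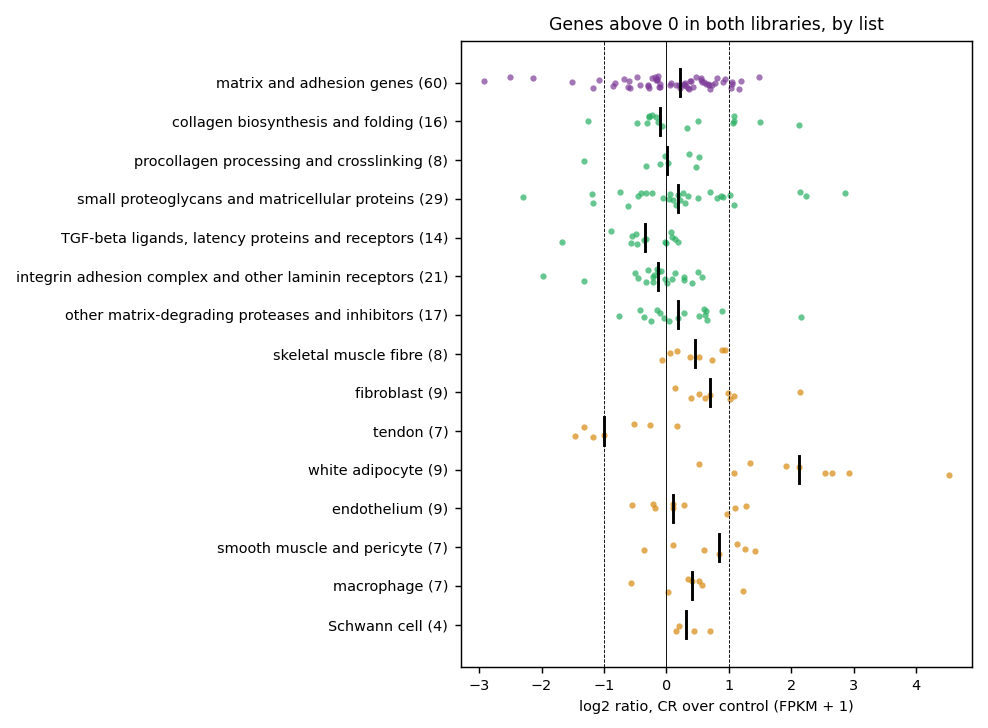
Log2 ratios of CR over control FPKM + 1 (horizontal axis) for genes above 0 in both libraries: the 60 matrix and adhesion genes (purple), pathway lists (green) and cell type marker lists (orange), with black bars at medians, dashed lines at 2-fold and the number of genes in parentheses. The median of the 60 genes is 0.21, that of the fibroblast list 0.70, that of the tendon list -0.99 and that of the white adipocyte list 2.13.

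Markers of the remaining cell types had medians nearer to 0. Muscle fibre markers had a median log2 ratio of 0.45 over 8 genes, none of them at 0 and the fast-fibre troponin Tnnt3 at 171817 FPKM in CR and 103936 FPKM in control. All 8 lay within 2-fold, 7 above 0 on the log2 scale and 1 below. The 1 below was Acta1, the most abundant of them, at 354522 FPKM in CR and 372424 FPKM in control. Endothelial markers had a median of 0.10 (6 of 9 above 0) and summed to 2964 FPKM in CR and 2289.9 FPKM in control, with none at 0. Macrophage markers had a median of 0.47 over 8 genes, with Cd14 listed at 0 in control. Schwann cell markers had a median of 0.32 over 6 genes, with S100b listed at 0 in control and Sox10 in CR. At least 2-fold higher were 2 of 9 endothelial markers (Tek and Emcn) and 2 of 8 macrophage markers (Mrc1 and Cd14), and 0 of either list were lower. Of the Schwann cell markers, 1 was higher (S100b) and 1 lower (Sox10). Of all genes, 8.01% were higher and 10.7% lower. None of the 8 cartilage and bone markers was among the table's single-symbol genes.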

How the data were processed

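Poly(A) RNA from thigh muscle was sequenced as 76 bp paired-end reads in 1 CR and 1 control library. Per the labels' protocols, RNA selected from 10 µg of total RNA was broken to about 200 nt and primed at random, which does not mark strand. The submitters' processing notes name Cuffdiff, Cufflinks and TopHat 1.2.0 as the authors' tools and mm9 as the build. Options and other versions are not given there. The table was deposited as FPKM for each locus, per the file headers. Their lowest value is exactly 1, so 1 was taken to have been added and was subtracted, a reading inferred from the values. All loci together come to 13608800 FPKM in CR and 12758500 in control, which is high for FPKM, so levels are compared within this table. Depth is unknown, and no interval is given.

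Loci with 1 symbol were used (234 merged loci were left out), loci of a symbol were summed, and log2 ratios used a pseudocount of 1 FPKM and a filter at a mean of 1 FPKM. With 1 library per group, genes past 2-fold are counted and no test was made. The counting of genes past 2-fold was checked on control values multiplied by fixed factors without noise. That checks the arithmetic only and not the effect of noise, zeros or low levels. The genes, lists and tests were chosen with earlier results of these data known. All of the 67 genes may be named, except 1 that enters the counts, sums and medians but is not reported here on its own. Of each pathway list, the most abundant gene and those with the highest and lowest ratio are named, and any other gene named was chosen after its values were seen, among them the cell type markers. Start windows came from RefSeq (GRCm38.p6) and transcript lengths from GENCODE M21, both matched by symbol. Alternatives covered pseudocounts, filters, scaling, the choice of locus, the subtraction and the choice of genes. Python 3.11.15, numpy 2.4.6, pandas 2.3.3 and matplotlib 3.10.9 were used.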

Additional observations from a re-analysis of the deposited data

How the results depend on the processing

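The count of matrix and adhesion genes at least 2-fold higher in CR was 7 of 67 (10.4%, beside 8.01% of all genes). It stayed within 1.5 times of that except at a minimum mean of 300 FPKM and with columns rescaled to equal sums. At 300 FPKM it was 4 of 31 (12.9%, beside 4.29%), a larger share of fewer genes. With rescaling it was 4 of 67 (5.97%, beside 7.15%), and Col3a1, Fn1 and Lamb1 lay at log2 ratios of 0.96, 0.98 and 0.98. The count at least 2-fold lower was 12 of 67 (17.9%, beside 10.7% of all genes). It was 4 of 52 when genes under a mean of 100 FPKM were left out (7.69%, beside 5.29%). At 300 FPKM it was 1 of 31 (3.23%, beside 2.93%), and without genes listed at 0 it was 6 of 60 (10%, beside 6.85%). The median log2 ratio was 0.08 and was 0.21 at 100 FPKM, 0.34 at 300 FPKM and 0.21 without genes listed at 0. These filters leave out the low genes, 6 of which are listed at 0 in CR. Under pseudocounts of 0.1 and 5 FPKM, no filter, a minimum mean of 10 FPKM, ratios centred on the median gene, the largest locus of a symbol, unsubtracted values and the list without Col4a3bp and ADAMTS-like genes, these counts stayed within 1.5 times and the median moved by less than 0.1. With the 23 genes whose loci overlap another locus left out, an alternative added after the data were seen, the counts were 6 and 11 of 44. These are 13.6% and 25%, beside 8.01% and 10.7% of all genes, from which genes with overlaps were not taken out. Of the values of single matrix and adhesion genes under an alternative, 781 stayed on their side of 2-fold and 3 lost 2-fold. None past 2-fold changed direction. Filters and the choice of genes leave a single ratio as it is. So does the choice of locus, as no matrix or adhesion gene had more than 1 locus. Only pseudocounts, centring, rescaling and unsubtracted values could move a ratio, so many of the 781 could not have changed. No paired analysis was possible because each group has 1 library, and leaving out a library was not possible for the same reason. Filters matter most for low genes, and without depth their counting error is unknown.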

Other observations

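A pair of collagens stood in loci that merge 2 symbols and were not counted. The locus of Col7a1, which forms anchoring fibrils, and Mir711 (chromosome 9, 108855790 to 108887028 in mm9) stood at 217 FPKM in the CR library and 451 FPKM in the control library, 2.07-fold lower in CR. The locus of Arfgap1 and Col20a1 stood at 305 FPKM in CR and 352 FPKM in control. Named or unnamed loci overlap 23 of the 67 genes, 104 of them unnamed. The 23 unnamed loci that overlap Hspg2 summed to 2463 FPKM in CR and 2166 FPKM in control, and the 16 that overlap Lama5 to 93.3 FPKM in CR and 902 FPKM in control, beside 301 and 452 FPKM for Lama5 itself in CR and control. The 5 unnamed loci that overlap Col1a1 summed to 788 FPKM in CR and 733 FPKM in control, and the 4 that overlap Col1a2 to 841 FPKM in CR and 403 FPKM in control.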
